A study of Rattus norvegicus with 4 samples.

Results

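The mRNAs of 6 genes of the arterial extracellular matrix were examined in elastic conduit artery and in muscular resistance artery. These were Eln (elastin, ENSRNOG00000001469), Lox (lysyl oxidase, ENSRNOG00000014426), Fn1 (fibronectin, ENSRNOG00000014288), Sparc (osteonectin, ENSRNOG00000012840), Dcn (decorin, ENSRNOG00000004554) and Lum (lumican, ENSRNOG00000004610). They were chosen by name as structural and matrix-associated genes, 6 of the 26313 Ensembl rat gene identifiers listed in each sample, and all 6 were among the 7203 genes that entered the test. RNA-Seq was performed on whole artery wall from untreated adult male Sprague-Dawley rats, with 2 samples of thoracic aorta (AO1 and AO2) and 2 samples of the mesenteric arterial arcade without the superior mesenteric artery (MA1 and MA2). The mesenteric arteries were cleaned of fat. AO1 and MA1 were taken from the same rat, AO2 from another and MA2 from a further one, so 3 rats gave the 4 samples. The p-values below rest on the spread between 2 samples per tissue, moderated by limma toward the spread of other genes. The main fit treats the 4 samples as independent, although AO1 and MA1 share a rat.

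Elastin is the core protein of the elastic fibers that let a conduit artery stretch and recoil with each heartbeat, and in the artery wall it is made mainly by smooth muscle cells. Lysyl oxidase is the copper-dependent enzyme that oxidizes lysines in elastin and collagen so that the chains become crosslinked. Fibronectin is an adhesive glycoprotein that binds integrins and other matrix proteins, SPARC is a collagen-binding glycoprotein that modulates how cells attach to the matrix, and decorin and lumican are small leucine-rich proteoglycans that bind collagen and regulate the assembly of its fibrils, decorin being a common product of adventitial fibroblasts.

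The deposited values are RPKM, that is, reads on a gene divided by its length and by the library size. The files pair no identifier with a symbol, so the symbols are those given with the list of genes, and they were set against the length behind each RPKM, which can be solved from the steps of the values. This length was 43732 bp for Eln, 68969 bp for Fn1, 21759 bp for Sparc, 40025 bp for Dcn and 6804 bp for Lum. RefSeq (rat assembly GRCr8) gives gene spans of 43431, 68694, 21752, 40032 and 7188 bp for the same symbols, so 5 of the 6 lengths lay within 5.34% of the span of the gene named. Only 0.00432% of protein-coding genes had a span as close to the Dcn length as Dcn itself, and 1.93% in the case of Lum, the least close of the 5. These lengths include introns, so the RPKM of these genes is per kilobase of gene span, whereas the methods of the study name the length of the mRNA. Lox was the exception, with 75496 bp behind its RPKM against a RefSeq span of 12752 bp, a factor of 5.92. The name of the Lox identifier therefore could not be checked this way. Its RPKM, low in every sample, is not on the same footing as the others. The length itself cancels in comparisons between samples. The identifier may however take in reads from outside the RefSeq span of Lox, which was not tested. In RefSeq, Eln overlaps the lncRNA LOC102553484 by 3434 bp, Lox a pseudogene of Rps3a by 271 bp and Dcn the lncRNA LOC120093566 by 32 bp. The sources used here do not say that strand entered the counting, so reads of these overlaps cannot be told apart.

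Library sizes solved from the same steps ranged from 83311442 to 90305293 reads, of which 72524447 to 82449173 fell on genes. The sum for AO1 exceeds what the sequencing yield stated for the study allows, so the recovered reads need not be mapped reads one for one. The 10 most abundant genes took 43.7% of these reads in AO1 and 35.9% in AO2, compared with 18.5% in MA1 and 16.3% in MA2, and for this reason RPKM were divided by a median-of-ratios factor for each sample (scaled RPKM). Before this step the median log2 difference between MA and AO over the 7203 genes was 0.37 and after it -0.05. Markers of smooth muscle, endothelium, fibroblasts and fat were not analysed here, since neither the lists nor the reference tables used here pair their identifiers with symbols, and their part in the differences below was not tested.

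None of the 6 matrix mRNAs passed the limits for differential expression (adjusted p of at most 0.05 from limma, more than 2-fold apart, each MA sample on the same side of the mean of AO). Over all 7203 genes 7.71% passed, and 0.93% passed with higher values in MA. The fitted log2 difference (MA minus AO) was above 0 for all 6, a sign shared by 45% of all genes, and the median of the 6 was 1.05 compared with -0.05 over all genes tested. Eln, Fn1 and Lum were more than 2-fold apart on the fitted scale before any test, as were 4.39% of all genes in this direction, and Lox, whose fitted difference is compressed by the pseudocount of 0.5, was 2.67-fold apart in mean scaled RPKM. Unadjusted p values below 0.05 were found for 2 of the 6, Lox and Lum, a share near the 25.3% of all genes. Lox passed the filter only through its MA samples, which fixes its direction, and without it the counts are 5 of 5 above 0, with a median of 1.25, and 1 of 5 at an unadjusted p below 0.05. In whole vessels, fewer cells of a type and less mRNA per cell cannot be told apart.

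**Figure D1:**
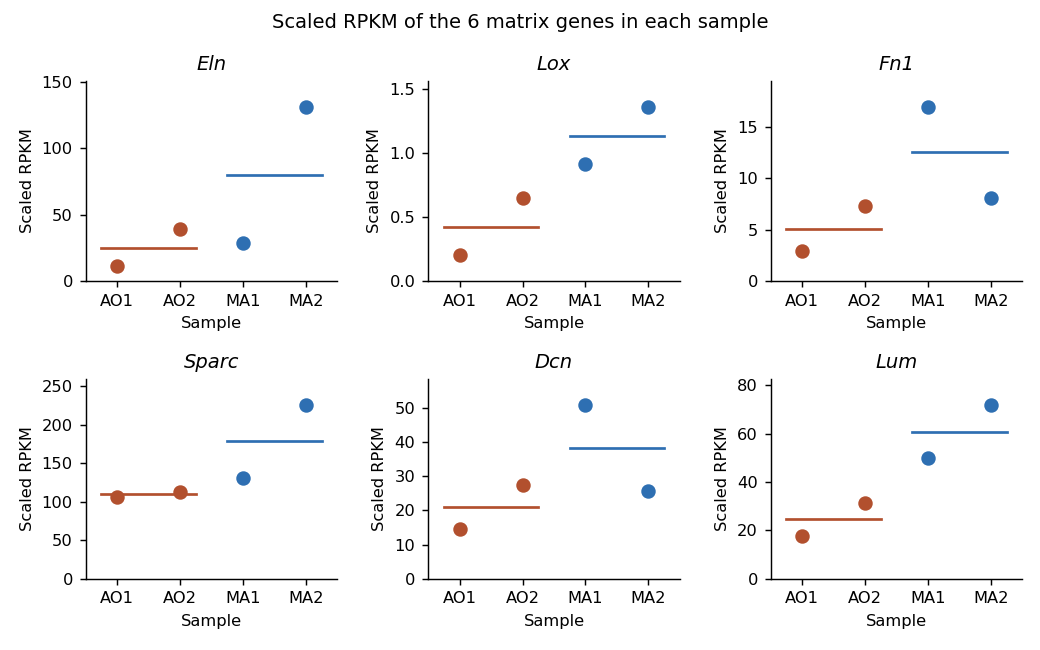
Scaled RPKM (vertical axes, from 0) of the 6 genes in AO1, AO2, MA1 and MA2 (horizontal axes), 1 point per sample, with a line at the mean of each tissue. AO1 was the lowest sample for all 6 genes, and only Eln and Dcn had an MA sample below an AO sample.

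Eln had 8.66 RPKM in AO1 and 35.2 in AO2, compared with 34.9 in MA1 and 151.5 in MA2. The tissues overlapped, since AO2 lay above MA1, and MA2 stood apart from the other 3 samples. After scaling, Eln was at 11.0 and 39.2 in the AO samples and at 28.6 and 130.8 in the MA samples, which gave 25.1 ± 19.96 (SD, n = 2) in AO and 79.7 ± 72.3 (SD, n = 2) in MA. The log2 difference was 1.53 with a standard error of 0.97 (adjusted p = 0.417 from limma), and its 95% interval ran from -1.09 to 4.16. Elastin mRNA, the product most tied to the conduit artery, was thus neither shown to be higher in AO nor shown to be equal, because the interval spans both directions widely. Of all genes tested, 99.6% had a smaller standard error than Eln. The lowest sample, AO1, held 34216 recovered reads on Eln with an exact 95% Poisson interval of 33854 to 34581 (counting error only). This interval takes each recovered read as an independent count, which was not checked. Without MA2 the log2 difference was 0.45, without AO1 it was 0.64, without AO2 it was 2.43, and without MA1 it was 2.62.

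The identifier given as Lox, the crosslinking enzyme that acts on elastin, had 0.158 RPKM in AO1 and 0.581 in AO2, compared with 1.11 in MA1 and 1.57 in MA2. Both MA samples lay above both AO samples. The reads behind these values numbered 1076 and 3834 in AO and 6988 and 10559 in MA. Lox entered the test only through its 2 MA samples, the ones with an RPKM of at least 1, so that a gene with its values had to be higher in MA to be tested at all. The log2 difference was 0.85 with a standard error of 0.30 (adjusted p = 0.177 from limma). Without AO1 it was 0.50. The pseudocount of 0.5 is close in size to the AO values and compresses this difference. The ratio of the mean scaled RPKM was 2.67, and the log2 difference was 1.36 with a pseudocount of 0.1 and 1.62 with limma-voom on the recovered reads, with adjusted p of 0.205 and 0.220 from limma.

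Fn1, the adhesive glycoprotein, had 2.31 RPKM in AO1 and 6.51 in AO2, compared with 20.6 in MA1 and 9.37 in MA2. Here MA1 and not MA2 was the highest sample, and the tissues did not overlap. Scaled RPKM were 5.09 ± 3.06 (SD, n = 2) in AO and 12.5 ± 6.23 (SD, n = 2) in MA. After scaling AO2 at 7.26 and MA2 at 8.09 were close to each other. The log2 difference was 1.25 with a standard error of 0.55, a 95% interval from -0.24 to 2.73 and an adjusted p of 0.263 from limma. Without AO1 it was 0.66 and without MA1 0.74, whereas without AO2 it was 1.84.

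Sparc had the highest RPKM of the 6 in every sample, with 84.0 in AO1 and 101.2 in AO2, compared with 159.7 in MA1 and 261.9 in MA2. This level is per kilobase of gene span and need not be that of mRNA copies. In MA2 the recovered reads numbered 506863 on Sparc and 589425 on Eln. The AO samples were within 1.06-fold of each other after scaling, the closest replicate pair among the 6 genes, while MA2 was 1.73-fold above MA1. Scaled RPKM were 109.6 ± 4.53 (SD, n = 2) in AO and 178.5 ± 67.4 (SD, n = 2) in MA. The log2 difference of 0.65 was the smallest of the 6 (standard error 0.33, adjusted p = 0.315 from limma). Its 95% interval, -0.23 to 1.53, covers no difference as well as a difference of more than 2-fold. Without MA2 the log2 difference was 0.25, and without MA1 it was 1.04.

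The small leucine-rich proteoglycans decorin and lumican are encoded by genes that neighbour each other in RefSeq, and their mRNAs did not follow the same pattern. Dcn had 11.5 RPKM in AO1 and 24.6 in AO2, compared with 62.1 in MA1 and 29.8 in MA2. Lum had 14.0 RPKM in AO1 and 28.3 in AO2, compared with 60.8 in MA1 and 83.3 in MA2. The RPKM of both genes were alike in AO1, AO2 and MA1 and parted in MA2. These RPKM are per kilobase of gene span, so the mRNA copies need not be alike. For Dcn the scaled MA2 value of 25.7 fell below the AO2 value of 27.4, and the log2 difference was 0.84 with a standard error of 0.48 (adjusted p = 0.367 from limma). Without MA1 the Dcn difference was 0.35 and without AO1 0.39, while it was 1.32 without MA2 and 1.28 without AO2.

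Lum came closest to the limits. Its scaled RPKM were 17.7 and 31.5 in AO and 49.8 and 71.9 in MA, with no overlap between the tissues. The mean was 24.6 ± 9.77 (SD, n = 2) in AO and 60.9 ± 15.6 (SD, n = 2) in MA, a ratio of 2.47. The log2 difference was 1.32 with a standard error of 0.37 and a 95% interval from 0.32 to 2.32, but the adjusted p of 0.119 from limma missed the limit. The adjusted p over the alternatives with all 4 samples ranged from 0.0518 to 0.276, and the log2 difference without 1 sample from 0.91 to 1.73. Without AO1 the difference was 0.91 (unadjusted p = 0.0776 from limma) and without MA2 1.06 (unadjusted p = 0.0789 from limma).

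**Figure D2:**
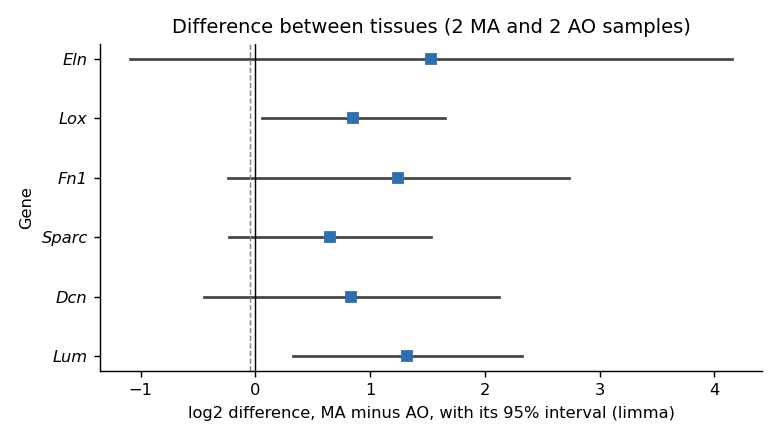
Fitted log2 difference between MA and AO (horizontal axis, squares) with its 95% interval from limma (lines) for the 6 genes, 2 samples per tissue. The dashed line marks the median of all 7203 genes at -0.05; the intervals of Lox and Lum lie above 0 before adjustment, and that of Eln is the widest.

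Non-overlap of the tissues was common and does not set these genes apart by itself. Both MA samples lay above both AO samples in 5 of the 6 genes with the RPKM as deposited, compared with 58.2% of all genes, and in 4 of the 6 after scaling, compared with 21.9% of all genes. The 4 were Lox, Fn1, Sparc and Lum, and without Lox, which could enter the test only in this direction, the counts were 4 of 5 and 3 of 5. With the RPKM as deposited the log2 differences were larger, 2.02 for Eln, 1.70 for Fn1 and 1.81 for Lum, but relative to the median of all genes they were 1.65, 1.33 and 1.44, close to the 1.58, 1.29 and 1.37 obtained with scaling. Over all genes, 67 genes were called with higher values in MA and 488 with higher values in AO, while the deposited values gave 170 and 260. None of the 6 was among them in either case.

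The differences between samples of the same tissue varied among these genes. Across the 7203 genes the median absolute log2 difference was 0.20 between the AO samples and 0.24 between the MA samples. For Eln the AO samples were 1.79 apart and the MA samples 2.17 apart, which was more than in 99.4% and 99.5% of all genes. AO2 was above AO1 and MA2 above MA1, and Eln was the only 1 of the 7203 genes with differences at least this large in both tissues in this direction. The limit was set by the values of Eln itself, so this is a description and not a test. Fn1 and Dcn also differed between replicates, by 1.18 and 0.89 in AO and by -1.02 and -0.97 in MA (MA2 minus MA1), the sign being reversed in MA relative to AO. Lum had AO2 above AO1 by 0.82 and MA2 above MA1 by 0.52. For Lox these differences were 0.71 and 0.40, compressed by the pseudocount, and its scaled RPKM was 3.24-fold higher in AO2 than in AO1 and 1.49-fold higher in MA2 than in MA1. Sparc differed by 0.08 in AO, less than the median gene, and by 0.79 in MA. Dissection, adhering tissue and the rat of origin were not tested as sources of this spread.

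**Figure D3:**
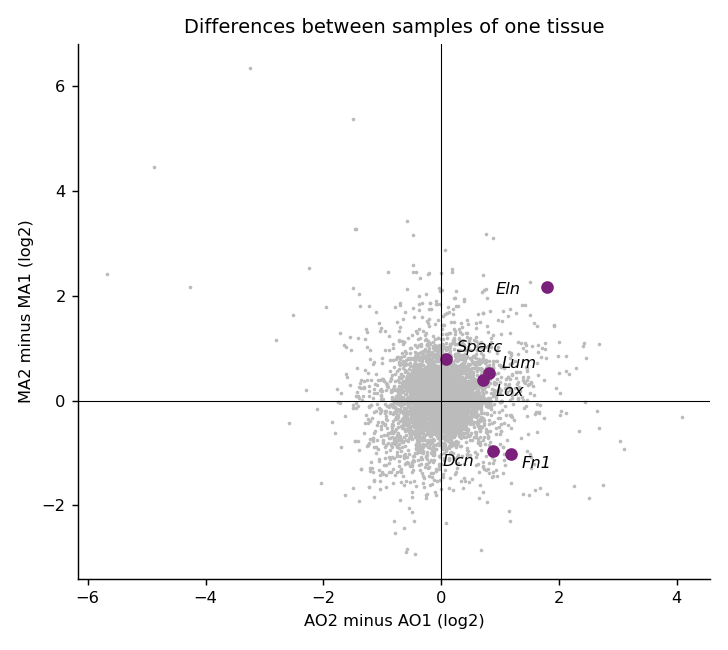
Log2 difference of AO2 minus AO1 (horizontal axis) and of MA2 minus MA1 (vertical axis) for each of the 7203 genes tested (gray points), with the 6 matrix genes in purple. Eln lies far up and to the right at 1.79 and 2.17, while Fn1 and Dcn lie to the right and below 0.

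Ratios between genes within a sample do not depend on scaling, and they grouped the genes by sample pattern. The ratio of Dcn to Fn1 in RPKM was 4.99 in AO1 and 3.78 in AO2, compared with 3.01 in MA1 and 3.18 in MA2. This was the steadiest of the 15 pairs of genes, with 1.66-fold between its highest and lowest value. The ratio of Lum to Lox varied 1.82-fold and was the next steadiest. In contrast, the ratio of Eln to Fn1 was 3.75 in AO1 and 5.40 in AO2, compared with 1.69 in MA1 and 16.2 in MA2, a range of 9.56-fold and the widest of the 15. The MA samples lay on either side of both AO samples, so this ratio separated MA1 from MA2 and not the tissues.

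The ratio of the mRNA of the identifier given as Lox to Eln mRNA also differed most within MA. The ratio of Lox to Eln was 0.0182 in AO1 and 0.0165 in AO2, compared with 0.0318 in MA1 and 0.0104 in MA2. The MA minus AO difference in the log2 ratio was 0.07. For the neighbouring proteoglycans, the ratio of Dcn to Lum was 0.826 in AO1 and 0.871 in AO2, compared with 1.02 in MA1 and 0.358 in MA2. Only MA2 departed from a ratio near 1. These ratios are given as a description without a test, and an exact two-sided permutation test of 2 against 2 samples cannot give a p below 0.33.

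**Figure D4:**
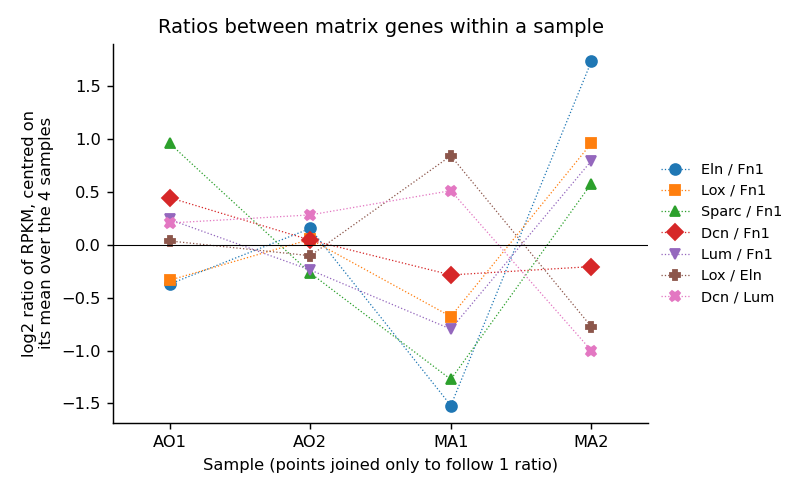
Log2 ratio of the RPKM of 2 matrix genes in each sample (horizontal axis), centred on the mean of that ratio over the 4 samples (vertical axis), for 7 pairs of genes. Dcn to Fn1 stays closest to 0, and Eln to Fn1 is lowest in MA1 and highest in MA2.

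By distance between the centred log2 profiles over the 4 samples, the closest genes of the 6 were Fn1 and Dcn at 0.46, followed by Lox and Lum at 0.48. Of the 7197 other genes tested, 3 were nearer to Fn1 than Dcn was, and 19 were nearer to Dcn than Fn1 was. For the other pair, 226 were nearer to Lox than Lum was, and 81 were nearer to Lum than Lox was. On this scale Eln was the most distant, its nearest member being Lum at 1.37, and 100 other genes were nearer to Eln. The pseudocount of 0.5 compresses Lox, so the distances and counts that involve Lox depend on it. In RPKM without a pseudocount, the ratio of Eln to Lox varied 3.07-fold and that of Eln to Lum 3.17-fold. Which of Lox and Lum is nearer to Eln therefore depends on this setting. The 2 identifiers most like Eln in pattern, among 7167 genes at least as abundant as the lowest of the 6, were ENSRNOG00000047435 at a distance of 0.40 and ENSRNOG00000027736 at 0.56. ENSRNOG00000047435 had 6.13 RPKM in AO1 and 18.7 in AO2, compared with 23.1 in MA1 and 78.9 in MA2. These values rest on only 36 and 106 recovered reads in AO and 125 and 456 in MA. ENSRNOG00000027736 had 8.27 RPKM in AO1 and 27.7 in AO2, compared with 46.9 in MA1 and 138.6 in MA2. These distances describe 4 samples and were not tested.

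In order of level per kilobase of gene span, Sparc was highest and Lox lowest in all 4 samples, with Fn1 the fifth in each. Eln, Lum and Dcn lay between them and changed places. Eln was second in AO2 and MA2 but the fourth in AO1 and MA1. Mean RPKM in AO was 21.9 for Eln, 21.1 for Lum and 18.1 for Dcn, with SD of 18.7, 10.1 and 9.25. Each SD is the spread of a gene between samples, and differences between genes were not tested. In MA the means were 93.2, 72.1 and 45.9 with SD of 82.5, 15.9 and 22.8. Division by the RefSeq gene span in place of the length behind the RPKM raised Lox to 2.19 in AO and 7.94 in MA and left the order of the 6 means as it was. Since the lengths contain introns, this order need not be that of mRNA copies.

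Promoter sequences were at hand in RefSeq (GRCr8) for 2 of the 6 genes, Sparc and Lum, and for this reason these are the ones shown. Sparc, Lum and Lox shared the same order of samples after scaling (AO1, AO2, MA1 and MA2 from lowest to highest), an order found in 9.11% of all genes. Each runs from 250 bases before to 50 bases after the annotated start, 5′ to 3′ on the strand of the gene. Capitals mark GGAGG or CCAAT on either strand, letters that were chosen after the sequences had been seen. No promoter is shown for Eln, Lox, Fn1 and Dcn.
Sparc, chr10:40038767-40039066, minus strand: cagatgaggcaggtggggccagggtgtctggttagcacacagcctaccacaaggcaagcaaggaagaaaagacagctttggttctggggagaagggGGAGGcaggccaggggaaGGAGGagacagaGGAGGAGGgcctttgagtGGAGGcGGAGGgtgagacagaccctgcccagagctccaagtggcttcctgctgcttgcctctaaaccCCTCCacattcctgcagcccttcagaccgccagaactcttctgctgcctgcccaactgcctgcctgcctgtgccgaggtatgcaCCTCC
Lum, chr7:34245456-34245755, plus strand: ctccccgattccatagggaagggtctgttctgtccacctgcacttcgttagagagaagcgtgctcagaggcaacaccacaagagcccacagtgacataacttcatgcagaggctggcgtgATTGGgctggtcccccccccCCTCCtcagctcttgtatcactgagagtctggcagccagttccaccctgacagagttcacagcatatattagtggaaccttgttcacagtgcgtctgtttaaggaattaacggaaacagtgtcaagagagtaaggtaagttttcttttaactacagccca
The Sparc sequence held 8 matches to GGAGG or its reverse complement, 2 of which overlap, and Lum held 1. At least 8 matches were present in 1.39% of the 33469 promoters of this length, and at least 1 match in 71.1%. CCAAT was matched once in Lum, on the reverse strand, and in 37.5% of all promoters. Neither TATAAA nor GGGCGG was found in either window on either strand, letters which 14.2% and 33.1% of all promoters hold. These matches describe the letters in the window and were not related to the mRNA values.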

How the data were processed

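RNA-Seq was done on 2 AO and 2 MA samples, grouped by the GEO labels. By the methods of the study, paired-end reads were aligned to the rat Ensembl reference (Rnor5.72) with TopHat, reads with more than 2 alignments were discarded, and counts per gene were divided by the mRNA length and the library size (the lengths solved here include introns). The authors deposited these values as RPKM, 1 list per sample. DESeq on counts, the test of the study, was not repeated.

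Library sizes, lengths and whole reads were solved from the RPKM steps (Python 3.11.15, numba 0.67.0). All 20747 genes above 0 came out whole, the largest distance from a whole read being 0.00484. The smallest length that gives whole reads was taken, so all reads of a gene may be understated by the same divisor. The solution was tested on simulated data, as was the fit.

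Each list was divided by its median-of-ratios factor (0.789 and 0.897 for the AO samples, 1.22 and 1.16 for the MA samples) and taken as log2(scaled RPKM + 0.5), a scale that understates differences of low genes. The 7203 genes that reached an RPKM of 1 in 2 or more samples were fitted with limma 3.58.1 in R 4.3.3 (lmFit, eBayes with a trend), and p was adjusted over all of them by the Benjamini-Hochberg method. Limits on FDR and fold are those of the study. The 95% intervals come from the same fit.

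The 6 genes and the lists were chosen with earlier results of these data known. Genes named are the 6 and the 2 identifiers nearest to Eln in centred log2 profile. Lists of other matrix genes and cell type markers could not be run, since 0 identifiers are paired with symbols. Alternatives for scaling, pseudocount, filter, trend, block, FDR, limma-voom and samples left out are given in the closing section. The RefSeq gene span was added after the data were seen.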

Additional observations from a re-analysis of the deposited data

How the results depend on the processing

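The log2 difference between MA and AO stayed above 0 for each of the 6 genes in all 90 refits, 11 alternatives and 4 that each left out 1 sample. For filters, trend, block and FDR this is built in, since they leave the difference as it is. In 89 of the 90 the gene stayed outside the limits. The exception was Eln under a replicate block by sample number, where the log2 difference of 1.53 had an adjusted p of 0.0445 from limma. The number pairs only AO1 and MA1 by rat, since AO2 and MA2 came from different rats, so the numbers were not taken as a pairing. Over the 7203 genes AO1 minus AO2 and MA1 minus MA2 had a correlation of 0.018. A correlation over all genes cannot decide on single genes, and an effect of the rat on Eln was not tested.

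Of all genes, 555 passed, 67 of them higher in MA and 488 higher in AO. Enriched in MA were 170 (and 260 in AO) with the RPKM as deposited, 43 with a pseudocount of 1, 107 with the replicate block and 134 at an FDR of 0.1. With a filter of 0.1 RPKM 368 genes passed, including 39 with higher values in MA. With no filter, limma gave 0 genes, 0 in MA and 0 in AO, with 3434 at an unadjusted p below 0.05 and limma-voom on the filtered genes giving 623. With 1 sample left out of the fit (scaling kept from all 4), which leaves a tissue with 1 sample assumed to vary like the other, 0 to 217 genes passed, 0 to 71 enriched in MA and 0 to 146 in AO. The 0 was without MA2, with 1460 at an unadjusted p below 0.05, while 22 passed without AO1 and 33 without AO2. The cause was not tested. Ratios from reads without length gave the same MA minus AO differences, which is built in. Reads per kilobase of mRNA were not computed, as the reference tables hold gene spans only.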

Other observations

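The 6 matrix mRNAs together took 0.321% of the reads on genes in AO1 and 0.595% in AO2, compared with 1.08% in MA1 and 1.80% in MA2. Eln contributed 12.9% of these reads in AO1 and 28.4% in AO2, compared with 16.2% in MA1 and 44.6% in MA2, so the makeup of the matrix reads differed within each tissue.

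In the pair from the same rat, MA1 and AO1, the log2 differences were 1.34 for Eln, 1.01 for Lox, 2.34 for Fn1, 0.30 for Sparc, 1.77 for Dcn and 1.47 for Lum. Between MA2 and AO2, from different rats, they were 1.73 for Eln, 0.69 for Lox, 0.15 for Fn1, 1.00 for Sparc, -0.09 for Dcn and 1.18 for Lum. On this scale Lum and Eln were more than 2-fold apart in both pairs, and Fn1 and Dcn only in the same-rat pair. The Lox differences are compressed by the pseudocount of 0.5, and in scaled RPKM Lox was 4.55-fold higher in MA1 than in AO1 and 2.09-fold higher in MA2 than in AO2. These are differences between single samples, with no test.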
